A study of Mus musculus with 18 samples.

Results

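Cycloheximide (CHX), an inhibitor of protein synthesis, was compared with solvent in IFNγ-treated NIH-3T3 cells by setting 3 arrays of IFNγ cells pretreated with CHX against 3 arrays of IFNγ cells pretreated with DMSO. These 6 arrays were chosen by their treatment labels, out of 18 arrays in 6 treatments of 3 arrays each. NIH-3T3 is an immortalised mouse embryonic fibroblast line, so every value belongs to a single cell line in culture. Cells of all 6 treatments received 4-thiouridine at 500 µM for the last 30 min, and the labelled RNA made in that window was purified and hybridised to Affymetrix mouse arrays, so the measurements are of newly transcribed RNA. Both groups compared here received IFNγ at 100 U/ml for 1 h, after 15 min of pretreatment with CHX in one group and with DMSO in the other. The remaining 4 treatments were mock and IFNα cells, each with and without CHX, and they serve here to show where the CHX effect in IFNγ cells differed. The text calls the arrays of each treatment replicates 1 to 3, as the labels do. In bulk samples of this kind, fewer cells transcribing a gene and less RNA made per cell cannot be told apart.

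IFNγ binds a receptor on the cell surface and activates JAK kinases and STAT factors, which bind GAS sites in promoters and start transcription without any new protein. Some of the first products, such as the transcription factor IRF1, then act on further genes, while others, such as the SOCS proteins, restrain the signal. A block of translation removes both kinds of product. CHX is also known to raise short-lived transcripts that labile repressors hold down, among them targets of NF-κB, whose inhibitor IκBα turns over quickly.

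The deposited intensity is linear and in arbitrary units, with array medians between 9.6 and 10.8, and it has no detection calls, so a value near 10 cannot be separated from background. The upper quartile of intensity was 114.6 to 124.5 on the IFNγ arrays with CHX and 131.0 to 141.0 on those without. All 15 fibroblast markers measured passed the filter on low values, with summed intensities of 58390.7 to 64199.4 without CHX and 66811.8 to 73432.3 with it. Of 14 leukocyte markers, 13 stayed under an intensity of 16 on all 3 arrays without CHX and 11 with it, and the summed intensities were 208.2 to 331.3 and 253.2 to 393.1. All 10 epithelial and all 10 endothelial markers were under 16 on the arrays without CHX, and 9 of 10 of each on those with it.

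CHX changed newly transcribed RNA in IFNγ cells in both directions. By limma, at an adjusted p under 0.01 and at least a 2-fold change, 792 of 27773 probe sets (2.85%) rose and 1540 (5.54%) fell, and these belonged to 496 and 1097 genes. The median log2 difference was 1.47 among the probe sets that rose and -1.43 among those that fell. Changes over 4-fold were more often falls, 263 probe sets against 186 rises, while those over 8-fold were more often rises, 69 against 30. The mean without CHX was under an intensity of 16 for 151 (19.1%) of the probe sets that rose and for 14 (0.909%) of those that fell. Centring each array on its median moved the median log2 difference of all probe sets from 0.03 to 0.23 and turned the balance to 1228 raised and 969 lowered.

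Genes of the interferon response were among the largest rises. Icam1, the adhesion molecule that leukocyte integrins bind, read 13.9, 14.4 and 6.9 in IFNγ cells without CHX and 376.0, 273.5 and 205.6 with it. The 3 arrays with CHX all lay far above the 3 without, a rise of 4.63 ± 0.24 on the log2 scale (SE, n = 3 per group), or 24.8-fold (limma adjusted p = 2.06e-08). In mock and IFNα cells Icam1 stayed between 4.9 and 6.9 on all 12 arrays, with or without CHX. Cxcl11, a chemokine for activated T cells, read 14.1, 12.3 and 8.8 without CHX and 641.0, 346.6 and 423.4 with it (log2 difference 5.30 ± 0.30, limma adjusted p = 3.89e-08). Its groups did not overlap either, and its level without CHX was close to background. Because such low levels carry these folds, 16 was added to every value as an alternative, which left the difference at 3.41 for Icam1 and 4.09 for Cxcl11.

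Cxcl9, another chemokine of the same T-cell receptor, was read by 2 probe sets that differed greatly in level. On the brighter one it read 2098.7, 1781.9 and 1605.5 without CHX and 9420.0, 8459.8 and 8315.6 with it (2.26 ± 0.21, limma adjusted p = 4.24e-06). On the dimmer one it read 18.4, 19.9 and 8.8 without CHX and 964.9, 930.1 and 880.3 with it (5.97 ± 0.22, limma adjusted p = 5.51e-10). Both rose with no overlap between the groups, but the size of the rise depended on the probe set.

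Promoter sequence is shown for genes whose changes recur below: Icam1 and Cxcl9 as rises, Irf1 as a gene that IFNγ already drove, Nfkbia for the NF-κB genes and Chac1 as the largest fall of the amino acid response. Each line holds the 250 bases before the RefSeq transcription start on mouse build GRCm38.p6, 5′ to 3′ on the gene's own strand, with motif matches in capitals. The windows lie at chr9:21015690-21015939 on the plus strand (Icam1), chr5:92328080-92328329 on the minus strand (Cxcl9), chr11:53769764-53770013 on the plus strand (Irf1), chr12:55492648-55492897 on the minus strand (Nfkbia) and chr2:119350992-119351241 on the plus strand (Chac1). Motifs were searched on both strands as κB GGANTTTCC, GAS TTCNNNGAA, ISRE GAAANNGAA and AARE TGATGNAA, the last being the site of ATF4 with C/EBP partners.
Icam1: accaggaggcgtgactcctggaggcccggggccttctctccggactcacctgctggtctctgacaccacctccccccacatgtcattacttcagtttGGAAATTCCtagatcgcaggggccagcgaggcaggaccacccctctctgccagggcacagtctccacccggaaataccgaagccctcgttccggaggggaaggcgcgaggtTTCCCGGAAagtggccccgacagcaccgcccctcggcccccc
Cxcl9: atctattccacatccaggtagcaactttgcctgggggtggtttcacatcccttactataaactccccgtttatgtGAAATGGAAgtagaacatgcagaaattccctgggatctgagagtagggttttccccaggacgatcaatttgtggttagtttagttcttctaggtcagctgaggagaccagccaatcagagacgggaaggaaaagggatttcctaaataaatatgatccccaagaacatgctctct
Irf1: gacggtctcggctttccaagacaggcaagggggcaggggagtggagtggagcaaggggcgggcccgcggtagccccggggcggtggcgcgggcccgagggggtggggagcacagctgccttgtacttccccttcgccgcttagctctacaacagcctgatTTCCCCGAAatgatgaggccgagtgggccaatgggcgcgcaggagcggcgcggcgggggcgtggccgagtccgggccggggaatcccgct
Nfkbia: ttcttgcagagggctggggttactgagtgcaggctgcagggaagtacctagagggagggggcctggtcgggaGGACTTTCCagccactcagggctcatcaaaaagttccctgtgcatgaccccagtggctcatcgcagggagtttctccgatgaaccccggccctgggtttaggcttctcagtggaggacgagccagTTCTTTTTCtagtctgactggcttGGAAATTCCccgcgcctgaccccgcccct
Chac1: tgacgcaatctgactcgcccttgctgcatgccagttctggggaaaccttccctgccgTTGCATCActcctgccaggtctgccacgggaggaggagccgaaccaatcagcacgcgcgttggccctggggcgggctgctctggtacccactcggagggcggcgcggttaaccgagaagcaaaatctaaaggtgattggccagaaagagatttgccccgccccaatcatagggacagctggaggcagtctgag
The capitals mark a κB and then a GAS match in Icam1, an ISRE match in Cxcl9, a GAS match in Irf1, 2 κB matches with an ISRE match between them in Nfkbia, and an AARE match in Chac1. A match is a run of letters, not evidence of binding.

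**Figure D1:**
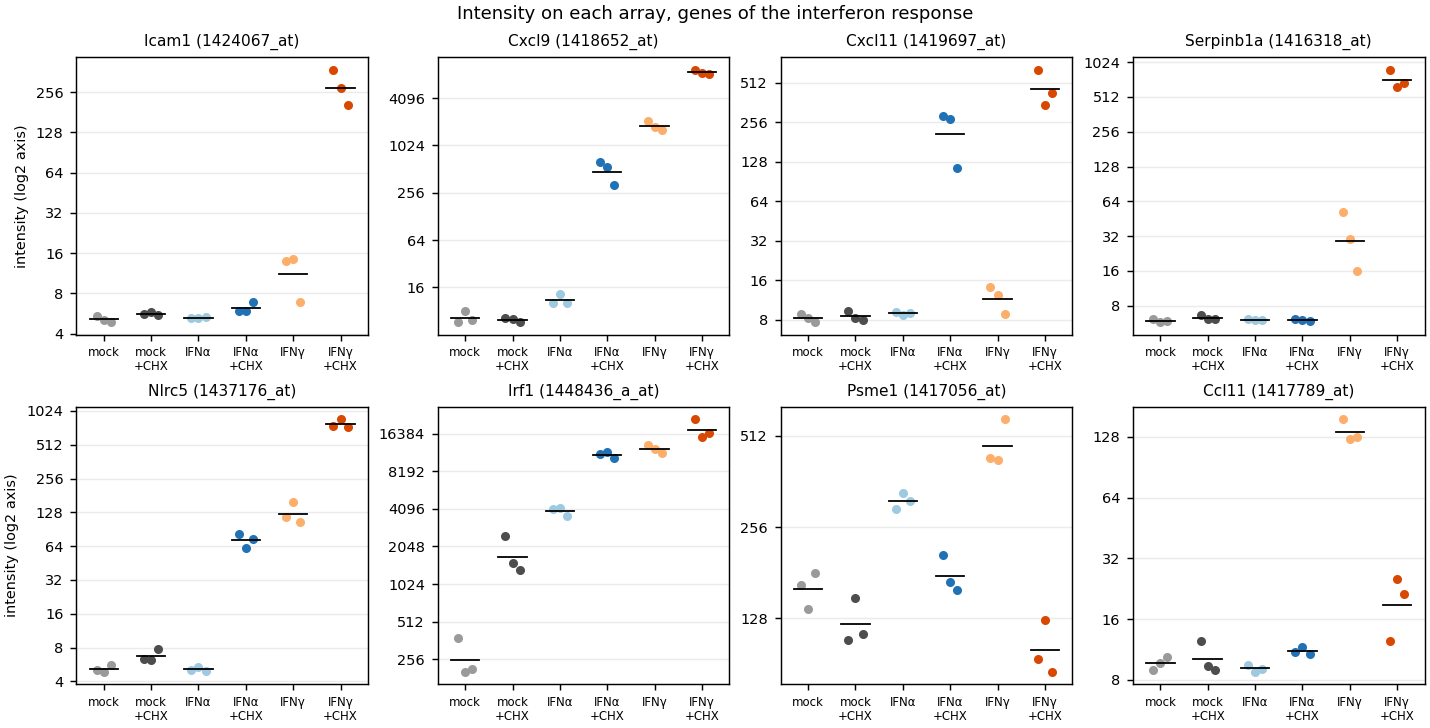
Intensity (arbitrary units, log2 axis) on each of the 18 arrays for 8 genes of the interferon response, by treatment, with points for arrays and lines for geometric means. Icam1 and Serpinb1a are highest in IFNγ cells with CHX and at 6.9 to 52.0 in IFNγ cells without it, Cxcl9 and Cxcl11 rise with CHX in both IFN treatments, and Ccl11 and Psme1 fall with CHX in IFNγ cells.

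Other genes that rose include regulators and effectors of antigen presentation. Nlrc5, the transactivator of MHC class I genes, read 115.9, 157.4 and 105.5 without CHX and 754.8, 862.8 and 744.1 with it (2.66 ± 0.15, limma adjusted p = 3.78e-08). Tap1, a subunit of the peptide transporter for MHC class I, read 442.5, 397.2 and 316.1 without CHX and 954.7, 910.7 and 734.4 with it (1.17 ± 0.21, limma adjusted p = 0.0012). In both genes every array with CHX lay above every array without. The class I heavy chains H2-K1 and H2-D1 rose by 1.07 and 1.02 on the log2 scale.

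Further partners in the same process fell. Psme1, a subunit of the PA28 proteasome activator, read 433.2, 425.1 and 580.4 without CHX and 93.9, 126.7 and 85.5 with it (-2.24 ± 0.18, limma adjusted p = 1.26e-06). Tap2, the partner subunit of Tap1, read 49.1, 40.8 and 53.3 without CHX and 16.5, 15.2 and 15.5 with it (-1.59 ± 0.22, limma adjusted p = 0.000149). The groups were apart in each gene, so the transporter's subunits moved in opposite directions. Over the antigen presentation list, 4 of 17 measured genes rose and 4 fell, with a median log2 difference of 0.05. The 4 rises became 2 without IFNγ replicate 2 or 3 or without replicate 1 or 2 of IFNγ cells with CHX. Over all 12121 genes tested, each by its brightest probe set and at an adjusted p under 0.01 with no fold minimum, 742 (6.12%) rose and 1535 (12.7%) fell, with a median of -0.01.

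Gbp2, an interferon-induced GTPase, fell under CHX in IFNγ cells. On the dimmer of its 2 probe sets it read 2924.1, 3109.4 and 3261.2 without CHX and 958.3, 964.4 and 860.0 with it (-1.74 ± 0.23, limma adjusted p = 9.02e-05). The gap was far larger than the spread of either group, and the brighter probe set fell by 1.60. Gbp7, of the same family, read 1583.9, 1979.5 and 1768.7 without CHX and 3455.3, 3062.4 and 4185.5 with it (1.00 ± 0.22, limma adjusted p = 0.00445). These were the only members of 11 measured interferon-inducible GTPases to pass the test, and the median of the list was 0.06. Such small counts cannot be set apart from the 6.12% of all genes that rose and the 12.7% that fell. The call of Gbp7 was lost without IFNγ replicate 1 or 3, without replicate 1 or 3 of IFNγ cells with CHX, and with only the arrays compared. Cd274, the checkpoint ligand PD-L1, read 319.8, 274.3 and 325.5 without CHX and 118.4, 121.0 and 118.6 with it (-1.36 ± 0.14, limma adjusted p = 9.77e-06).

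Ccl11, the eosinophil chemokine eotaxin, showed the deepest fall among the chemokines. It read 156.2, 124.8 and 127.5 without CHX and 12.5, 25.4 and 21.2 with it (-2.84 ± 0.20, limma adjusted p = 4e-07). In mock and IFNα cells it lay between 8.8 and 12.4 on all arrays, so with CHX the IFNγ arrays approached that level. Of 27 measured chemokines and cytokines, 7 rose and 5 fell, and the median was 0.26. Among all genes tested 6.12% rose and 12.7% fell. The 5 falls became 3 without IFNγ replicate 1 or 2 or without replicate 1 or 3 of IFNγ cells with CHX. Besides Cxcl9 and Cxcl11 the rises included Cxcl2, a neutrophil chemokine, at 3.22 and Il1a at 2.19, and the falls included Csf3 at -1.48, Lif at -1.30 and Il6 at -0.91.

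The antiviral genes called in the main fit all rose. Of 32 measured antiviral effectors and sensors, 7 rose and none fell, with a median of 0.10. Among all genes tested 6.12% rose and 12.7% fell. The 7 rises became 2 with only the arrays compared, and 1 gene of the list fell with the replicate block. Helz2, an interferon-induced helicase, rose by 2.03 ± 0.16, Ddx58, the RNA sensor RIG-I, by 2.00 ± 0.17, and Oas1b, an oligoadenylate synthetase relative, by 1.78 ± 0.30 (limma adjusted p = 9.44e-07, 1.71e-06 and 0.000598). Oas1b started from 17.3, 10.5 and 11.3, at the level of background, and reached 56.1, 58.8 and 25.4. Rsad2, the antiviral protein viperin, stayed between 4.5 and 11.1 on all 6 arrays by its 3 probe sets.

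Genes of the signal itself were measured next. Irf1, the IFNγ-induced transcription factor, read 13275.9, 12456.0 and 11533.0 without CHX and 21427.5, 15500.5 and 16526.6 with it. Every array with CHX was the higher, yet the difference of 0.51 ± 0.24 did not pass the test (limma adjusted p = 0.145). Of 18 measured receptors, JAKs, STATs and IRFs, 3 rose and none fell, with a median of 0.30, where 6.12% of all genes rose and 12.7% fell. The genes that rose were the receptor chain Ifngr1 by 1.08, Irf3 by 0.94 and the kinase Jak1 by 0.92. Stat2 ranged from 70.7 to 696.4 with CHX and from 106.7 to 440.2 without it.

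Among feedback inhibitors, Socs2 rose by 1.62 ± 0.22 and Usp18, which restrains the IFNα receptor, by 1.62 ± 0.15 (limma adjusted p = 0.000119 and 4.68e-06). Usp18 read 9.4, 9.0 and 9.8 without CHX, at background, and between 24 and 40.2 with it. Socs1, the main inhibitor of IFNγ signalling, read 2050.7, 767.7 and 1169.1 without CHX and 1268.5, 1244.4 and 690.0 with it, so the groups overlapped (-0.25 ± 0.36, limma adjusted p = 0.648). Socs3 likewise overlapped between the groups (0.22 ± 0.27, limma adjusted p = 0.603). Over the list of negative regulators, 3 of 19 rose and 2 fell, with a median of -0.18, where 6.12% of all genes rose and 12.7% fell. Leaving out 1 array gave 2 to 3 rises and 1 to 2 falls, counts too small to set apart from those shares.

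A wider view came from probe sets that the study's earlier arrays gave as higher with IFNγ. They were taken from a table of the study that holds only probe sets it called in the earlier or the present experiment. Calls in the present experiment used these same arrays, with and without CHX. The choice of members was therefore not independent of them, and the shares below are descriptive. At least 3-fold higher there were 228 probe sets, and those with a single symbol read 129 genes. Of the 228 probe sets, 48 (21.1%) rose by at least 2-fold and 10 (4.39%) fell, beside 2.85% and 5.54% of all probe sets. Their median log2 difference was 0.46, with quartiles of -0.00 and 1.12. Taken by replicate number, the medians were 0.43, 0.66 and 0.44. In mock cells the median CHX effect on the same probe sets was -0.05 and in IFNα cells 0.57. Of 79 probe sets at least 2-fold lower with IFNγ on those arrays, 6 rose and 23 (29.1%) fell, with a median of -0.44. The median CHX effect on these 79 was -0.23 in mock and -0.32 in IFNα cells, and none was called different from mock cells. At the adjusted p alone the rises went from 6 to 1 without IFNγ replicate 2 or 3 or without replicate 1 of IFNγ cells with CHX, and to 3 without replicate 2 of the latter.

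The CHX effect in IFNγ cells was then set against that in mock and IFNα cells, which share no array with it. CHX raised 698 probe sets (2.51%) and lowered 1131 (4.07%) in mock cells, and raised 991 (3.57%) and lowered 994 (3.58%) in IFNα cells. Of the probe sets raised in IFNγ cells 401 were also raised in mock cells, 50.6% of the first list and 57.4% of the second. Of those lowered, 779 were shared with mock cells, 50.6% and 68.9% of the lists, and none was called in opposite directions. With IFNα cells 537 raised probe sets (67.8% and 54.2%) and 811 lowered ones (52.7% and 81.6%) were shared, and 3 were lowered in IFNγ cells but raised in IFNα cells. Across the 27773 probe sets, many of which read one gene or are regulated together, the CHX effect in IFNγ cells correlated at r = 0.80 with that in mock cells and at r = 0.84 with that in IFNα cells.

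**Figure D2:**
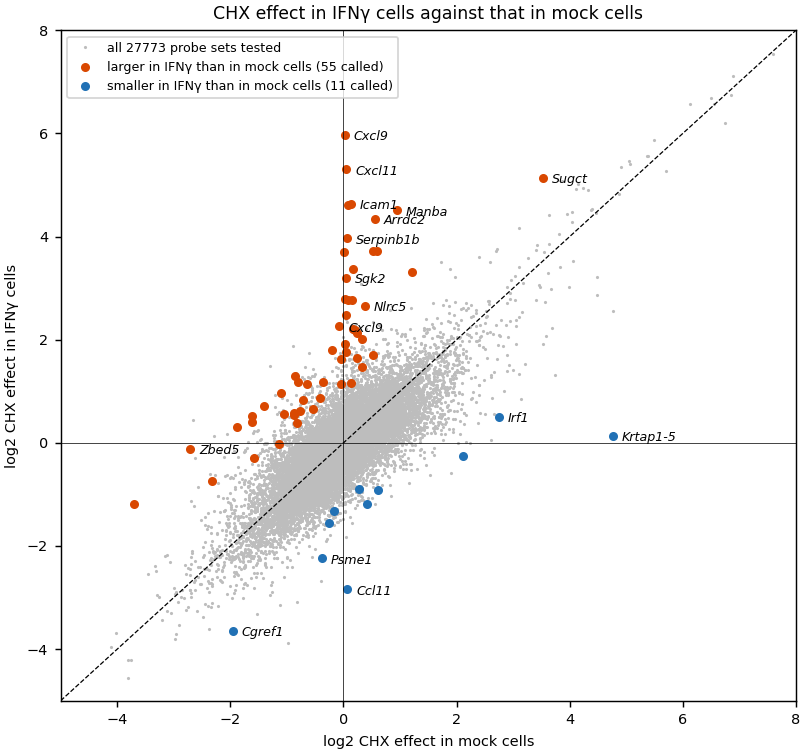
Log2 CHX effect in IFNγ cells (vertical axis) against that in mock cells (horizontal axis) for 27773 probe sets, with the dashed line marking equal effects. Coloured points are the 55 probe sets with a larger and the 11 with a smaller effect in IFNγ cells, and 32 of the larger ones moved by under 1.5-fold in mock cells.

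The test of the difference itself found few probe sets. The effect was larger, that is more positive, in IFNγ than in mock cells for 55 probe sets (0.198%) of 46 genes, and smaller for 11 (0.0396%). With the replicate number as a block these counts were 102 and 23, and each was sensitive to single arrays. The larger effects fell to 34 without IFNγ replicate 3, to 32 without mock replicate 2 and to 32 and 35 without replicates 2 and 3 of mock cells with CHX. The smaller effects fell to between 4 and 7 without any 1 mock array, with or without CHX, without IFNγ replicate 1, or without replicate 1 or 3 of IFNγ cells with CHX. Among the 55, 37 rose in IFNγ cells, and 30 of these moved by under 1.5-fold in mock cells. Another 11 were lowered by CHX in mock cells. The largest differences by named gene were Cxcl9 on its dimmer probe set at 5.94 ± 0.31, Cxcl11 at 5.25 ± 0.42, Serpinb1a at 4.54 ± 0.40 and Icam1 at 4.50 ± 0.34 on the log2 scale (limma adjusted p = 1.79e-07, 2.61e-05, 6.25e-05 and 1.43e-05).

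Several genes outside the classical interferon lists also had a larger effect in IFNγ than in mock cells. Serpinb1a, an inhibitor of neutrophil proteases, read 52.0, 30.0 and 16 without CHX and 879.8, 621.7 and 670.7 with it (4.61 ± 0.28, limma adjusted p = 8.52e-08). Its neighbour in the family, Serpinb1b, rose by 3.97 ± 0.11 from 9.5 to 12.8 without CHX to 168.7 to 206.0 with it, and reads of such close paralogs may not be fully separate on an array. Manba, the lysosomal beta-mannosidase, read 12.5, 12.8 and 12.7 without CHX and 359.9, 258.7 and 257.9 with it (4.51 ± 0.22, limma adjusted p = 1.33e-08). CHX also raised Manba in the other settings, 1.92-fold in mock cells and 5.71-fold in IFNα cells (limma adjusted p = 0.00885 and 3.21e-06). In each of these genes the IFNγ groups were far apart. Sgk2, a kinase related to the glucocorticoid-induced Sgk1, rose from 4.2 to 4.3 to 37.2 to 43.0, a small step in intensity that adding 16 reduced from 3.20 to 1.45. Sgk2 passed the filter only through the IFNγ arrays with CHX, so its rise and its differences are not independent of the filter. Smoc1, a secreted matrix protein, read 108.5, 100.0 and 88.6 without CHX and 876.5, 675.3 and 533.7 with it, and did not move in mock cells (0.02, limma adjusted p = 0.952).

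Smaller effects in IFNγ than in mock cells included Irf1 and Ccl11. CHX raised Irf1 in mock cells from 376.2, 203.7 and 212.9 to 2465.1, 1501.2 and 1319.9, and the difference of -2.23 ± 0.34 passed narrowly (limma adjusted p = 0.00698). That call was lost under several alternatives, among them leaving out any 1 of the IFNγ replicates without CHX. Krtap1-5, a keratin-associated protein gene, stayed at 4.6 to 5.7 on all 6 IFNγ arrays, while CHX took it from 4.7 to 4.9 up to 97.9 to 194.0 in mock cells. It passed the filter only through the mock and IFNα arrays with CHX, so its difference is not independent of the filter. For Psme1 the difference was -1.86 ± 0.26 and for Ccl11 -2.91 ± 0.29 (limma adjusted p = 0.00305 and 0.000176). The call of Psme1 was lost without replicate 2 of mock cells, with or without CHX.

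Against IFNα cells, the effect of CHX was larger in IFNγ cells for 24 probe sets (0.0864%) and smaller for 39 (0.14%). Without IFNα replicate 2 the first count was 14 and without IFNγ replicate 3 it was 15. Icam1 and Serpinb1a stood out again, by 4.39 ± 0.34 and 4.62 ± 0.40 (limma adjusted p = 9.09e-06 and 2.62e-05). Of the 39 smaller effects 34 were probe sets that CHX raised in IFNα cells, and 28 moved by under 1.5-fold in IFNγ cells. Cd274 rose with CHX in IFNα cells, from 74.2, 85.9 and 68.0 to 203.1, 230.6 and 208.4, and fell in IFNγ cells, a difference of -2.86 ± 0.20 (limma adjusted p = 2.99e-06). Gbp2 on its dimmer probe set did the same, rising from 315.5, 299.6 and 293.7 to 938.7, 767.7 and 546.8 in IFNα cells (difference -3.02 ± 0.32, limma adjusted p = 0.000263). With CHX, Gbp2 therefore lay at 546.8 to 938.7 in IFNα cells and at 860.0 to 964.4 in IFNγ cells, ranges that overlapped.

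For Cxcl9 the comparison with IFNα cells turned on the probe set. On the brighter one the effect was smaller in IFNγ cells by 3.18, since CHX took IFNα cells from between 10 and 13.1 to 623.1, 539.8 and 318.7. On the dimmer one it was larger in IFNγ cells by 5.34, since IFNα cells reached 13.8, 10.4 and 11.2 with CHX. No direction is given for Cxcl9 in that comparison.

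Genes of NF-κB and TNF receptor signalling formed a second block of rises. Of 33 measured, 14 rose and 2 fell, with a median of 0.46, beside 0.57 in mock and 0.48 in IFNα cells. For this count and the list counts that follow, 6.12% of all genes rose and 12.7% fell. Tnfaip3, the ubiquitin-editing inhibitor A20, read 751.4, 652.2 and 492.6 without CHX and 9860.7, 7159.8 and 7997.4 with it (3.73 ± 0.21, limma adjusted p = 3.57e-08). Birc3, an inhibitor of apoptosis in TNF receptor complexes, read 398.2, 448.8 and 287.7 without CHX and 2237.6, 2158.3 and 2032.4 with it (2.53 ± 0.20, limma adjusted p = 1.1e-06). Both genes were separated between the groups by far more than their spread. Subunits of the factor rose too, with Rel at 2.06, Nfkb2 at 1.90, Relb at 1.74 and Rela at 1.60.

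Inhibitors of NF-κB other than Tnfaip3 rose as well. Nfkbia, which encodes IκBα, read 16069.3, 15011.5 and 13403.1 without CHX and 24384.0, 27338.5 and 25845.8 with it (0.81 ± 0.10, limma adjusted p = 4.85e-05). Nfkbie rose by 1.89 and the deubiquitinase Cyld by 1.67. Traf1, an adaptor of TNF receptors, read 4.7, 4.8 and 4.7 without CHX and 10.5, 68.9 and 29.7 with it, and its rise of 2.55 ± 0.46 (limma adjusted p = 0.00106) became 1.18 and lost its call with 16 added. The falls were Sphk1, the kinase that makes sphingosine 1-phosphate, at -2.17 ± 0.31, and Traf4 at -1.74 ± 0.19 (limma adjusted p = 0.000172 and 1.99e-05). Of 17 other NF-κB targets 9 rose and none fell, among them Saa3 at 1.87 and Vcam1 at 1.40 as well as Icam1. Those 9 rises became 6 to 9 on leaving out 1 array and 5 with only the arrays compared. With the replicate block 1 of these targets fell. No gene of the signalling list was called in the test of the difference between IFNγ and mock cells.

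**Figure D3:**
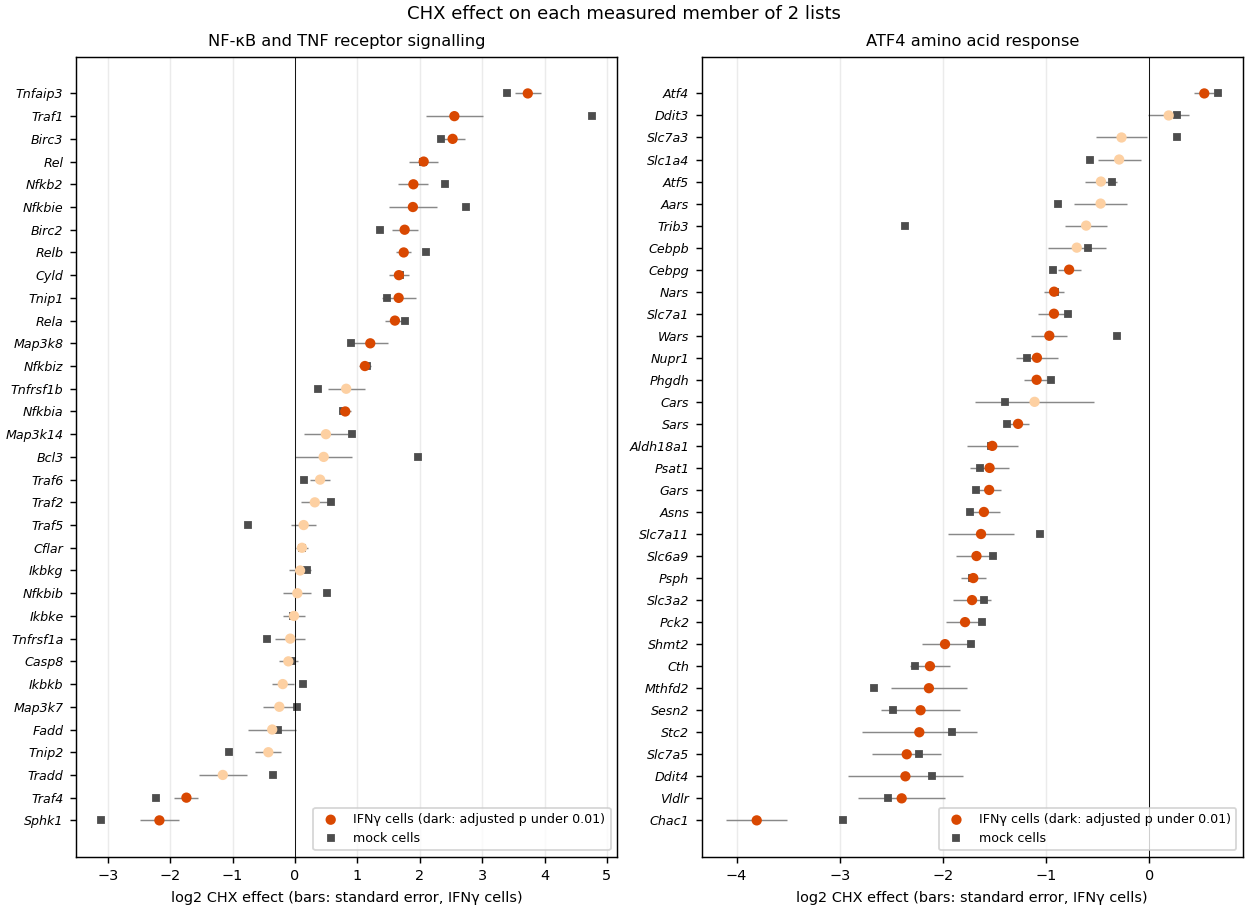
Log2 CHX effect on each measured gene of the NF-κB and TNF receptor list (left) and of the ATF4 amino acid response list (right), with circles and standard error bars for IFNγ cells, dark where the adjusted p was under 0.01, and squares for mock cells. Tnfaip3 heads the first list at 3.73, and nearly all of the second list lies below 0, down to Chac1 at -3.80.

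Immediate-early genes, the first transcripts made after a growth stimulus, had a median of 0.55, and 15 of 36 measured rose while 4 fell. The 15 rises went to 9 without IFNγ replicate 2 or 3 or without replicate 1 of IFNγ cells with CHX, to 23 with the replicate block and to 3 with only the arrays compared. Atf3, a stress-induced repressor, read 1239.5, 1054.6 and 662.0 without CHX and 6343.9, 5365.5 and 4143.4 with it (2.45 ± 0.30, limma adjusted p = 5.37e-05). Gadd45a rose by 2.04 and Fosb by 2.01, while Fos rose by 0.50 and Egr1 by 0.55. All 3 nuclear receptors of the Nr4a family fell, Nr4a3 by 2.61, Nr4a2 by 1.77 and Nr4a1 by 0.69. Among 18 genes of MAP kinase feedback the phosphatases Dusp8 and Dusp16 rose by 3.09 and 2.71, and Dusp7, Dusp4 and Dusp5 fell by 1.93, 1.10 and 0.84. These 2 rises and 3 falls lay near the shares of all genes, 6.12% and 12.7%, and are not read as a trait of the list. The 3 falls became 1 without IFNγ replicate 1 or without replicate 3 of IFNγ cells with CHX, and the call of Dusp4 was kept only without replicate 1 of the latter.

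Canonical histone genes gave the largest rises of all lists. Of 10 measured, 8 rose and none fell, with a median of 4.90, beside 4.65 in mock and 4.73 in IFNα cells. H1f2, a linker histone, read 103.4, 95.3 and 48.7 on its brighter probe set without CHX and 8081.2, 8319.7 and 7725.5 with it (6.68 ± 0.24, limma adjusted p = 4.3e-10). H2bc21, a core histone, read 11.2, 15.9 and 9.0 on its brighter probe set without CHX and 2087.9, 2374.4 and 2055.5 with it (7.53 ± 0.21, limma adjusted p = 2.93e-11). The separation was complete in both genes, although histone genes are near-identical copies and a probe set can read several of them. By shortening the labelling in CHX-treated cells, the study attributed the rise of histone RNA mainly to altered processing rather than synthesis. The present arrays do not separate processing from synthesis, so these folds are not measures of transcription. Variant histones did not follow as a group, with 2 of 10 raised, H2ax at 2.90 and H3f3b at 2.62, and a median of 0.15. Ifnz, which encodes the type I interferon limitin, rose from 41.9, 41.4 and 18.2 to 2540.8, 2300.0 and 2194.1 (6.21 ± 0.33, limma adjusted p = 2.92e-08), and by 6.75 in mock cells.

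**Figure D4:**
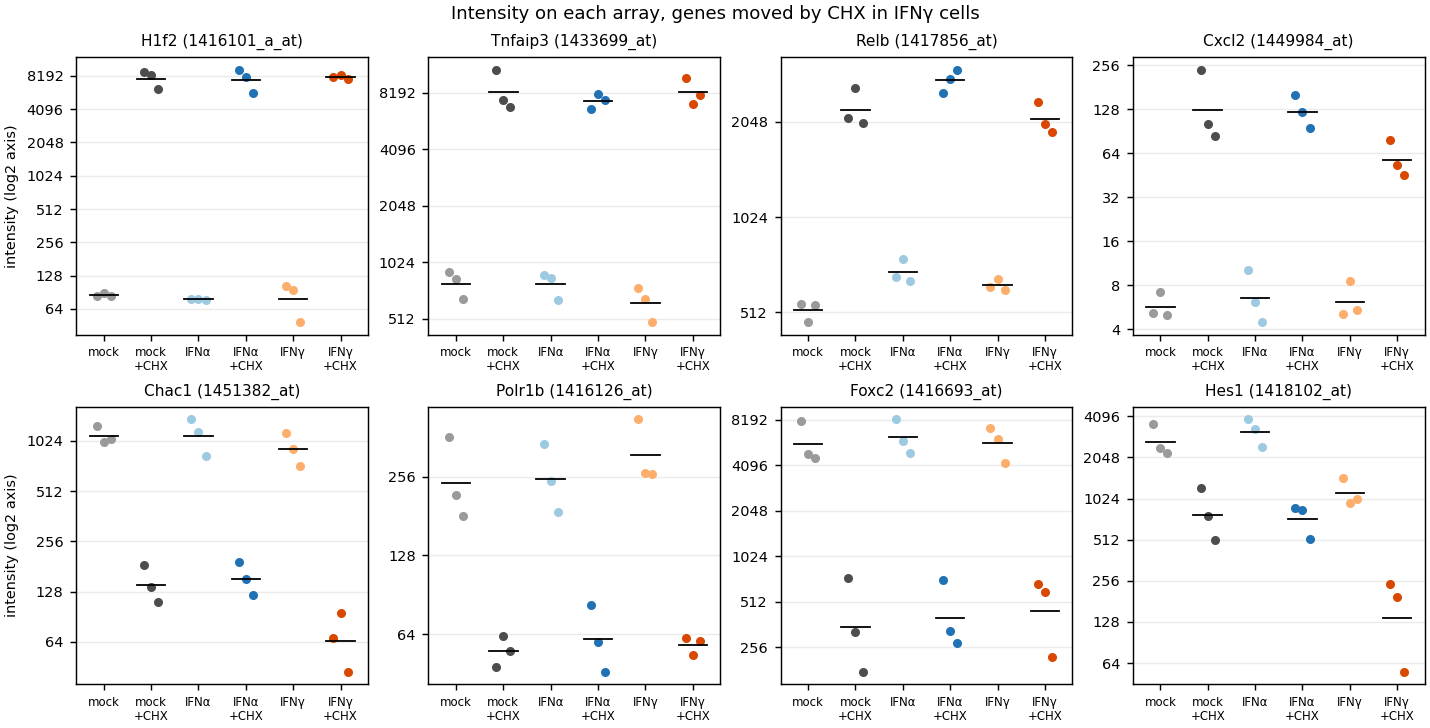
Intensity (arbitrary units, log2 axis) on each of the 18 arrays for 8 genes that CHX moved in IFNγ cells, by treatment, with points for arrays and lines for geometric means. H1f2, Tnfaip3, Relb and Cxcl2 rise and Chac1, Polr1b, Foxc2 and Hes1 fall with CHX in IFNγ cells, and their means move the same way in mock and IFNα cells.

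The falls were most complete in the amino acid response driven by ATF4, a transcription factor whose translation rises under stress and which turns on amino acid transport, synthesis and tRNA charging. Of 34 measured genes 25 fell and 1 rose, with a median of -1.54, beside -1.53 in mock and -1.44 in IFNα cells. Chac1, which degrades glutathione, read 1142.6, 914.9 and 720.6 without CHX and 67.8, 95.7 and 42.5 with it (-3.80 ± 0.29, limma adjusted p = 7.92e-07). Slc7a5, the large neutral amino acid transporter, read 2204.7, 2246.2 and 1417.9 without CHX and 396.0, 636.7 and 209.9 with it (-2.35 ± 0.33, limma adjusted p = 0.000155). All arrays with CHX were below all arrays without in both genes. Asns, asparagine synthetase, fell by 1.60, the serine pathway enzymes Psph, Psat1 and Phgdh fell by 1.71, 1.55 and 1.09, and the tRNA synthetases Gars and Sars fell by 1.55 and 1.27. The 1 rise was Atf4 itself, at 0.53. Ddit3, which encodes CHOP, did not pass the test (0.19, limma adjusted p = 0.526).

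Genes for making ribosomes and other MYC targets fell by less each but in number. Of 60 measured 30 fell and 1 rose, with a median of -0.79. Polr1b, a subunit of RNA polymerase I, read 423.4, 264.4 and 262.4 without CHX and 62.1, 53.1 and 60.2 with it (-2.40 ± 0.29, limma adjusted p = 4.28e-05). Its partner subunits Polr1e and Polr1a fell by 1.14 and 1.13, Nop9 and Nop16 by 1.92 and 1.89, and spermidine synthase, Srm, by 1.76. The rise was Odc1, ornithine decarboxylase, at 0.91. Myc itself read 5868.4, 5362.9 and 3607.8 without CHX and 5483.8, 6085.8 and 4174.8 with it, and the groups overlapped (0.10 ± 0.25, limma adjusted p = 0.81). Of its network, Mxd4, Mnt, Mxi1 and Mlxip fell and Mxd1 rose by 1.67.

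Cell cycle genes showed part of this decline. Of 44 E2F targets and replication genes 12 fell and 1 rose, with a median of -0.41. Beside this count and those that follow, 12.7% of all genes fell and 6.12% rose. The 12 falls became 6 with median centring, 2 with only the arrays compared, and 8 to 11 on leaving out 1 array. The largest falls were the cyclin Ccne2 at -1.78 and the phosphatase Cdc25a at -1.61. Of 29 ribosomal protein genes 8 fell and none rose, with a median of -0.44 beside -0.16 in mock cells, and Rpl12 fell furthest, by 1.74. That count of 8 was 3, 4 and 3 without IFNγ replicate 1, 2 or 3, 5 and 2 without replicate 1 or 3 of IFNγ cells with CHX, and 0 with only the arrays compared. Of 21 p53 targets 5 fell, among them Cdkn1a, the cell cycle inhibitor p21, at -1.09, and Pmaip1, which encodes NOXA, rose by 1.91. Without IFNγ replicate 1, 3 of these targets fell.

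Developmental regulators and feedback genes held some of the deepest falls. Foxc2, a forkhead factor of mesoderm, read 7243.9, 6144.2 and 4241.5 without CHX and 672.3, 592.6 and 219.7 with it (-3.69 ± 0.53, limma adjusted p = 0.00017). Hes1, a repressor downstream of Notch, read 1444.1, 948.1 and 1011.7 without CHX and 241.9, 194.5 and 55.5 with it (-3.02 ± 0.47, limma adjusted p = 0.000323). Neither gene's groups overlapped, while in mock cells the fall of Hes1 was -1.78 and did not pass the test (limma adjusted p = 0.0154), and the difference between the settings was not called. Over the list of developmental factors 9 of 39 fell and 2 rose, with a median of -0.20, where 12.7% of all genes fell and 6.12% rose. The 9 falls became 5 without IFNγ replicate 1 or 2, and 16 with the replicate block. The clock genes Per1 and Bhlhe40 fell by 2.41 and 1.79, the growth factor Tgfb1 by 2.60 and its nuclear corepressor Tgif1 by 1.76. Of these, the call of Bhlhe40 was lost on leaving out 2 of the 6 arrays in turn, that of Tgfb1 on 3 and that of Tgif1 on 5.

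Other single genes fell to low levels. Slc19a1, the reduced folate carrier, read 161.1, 194.1 and 188.1 without CHX and 7.0, 20.7 and 6.4 with it (-4.21 ± 0.37, limma adjusted p = 2.72e-06). Ramp3, a partner of the calcitonin receptor family, read 146.3, 136.0 and 164.7 without CHX and 5.0, 14.4 and 7.2 with it (-4.21 ± 0.37, limma adjusted p = 2.35e-06). Both ended at the level of background, and with 16 added to every value the falls were 2.88 and 2.75 on the log2 scale, smaller than those of Foxc2 (-3.64), Mgp (-3.62) and Chac1 (-3.50). Mgp, an inhibitor of matrix calcification, fell by 3.71 from 3632.3, 3119.2 and 2579.4 to 305.9, 278.9 and 153.8. Ltbp3, which holds latent TGF-β in the matrix, fell by 3.89 ± 0.56, with 14.6, 94.0 and 41.7 on the arrays with CHX, a wide spread.

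**Figure D5:**
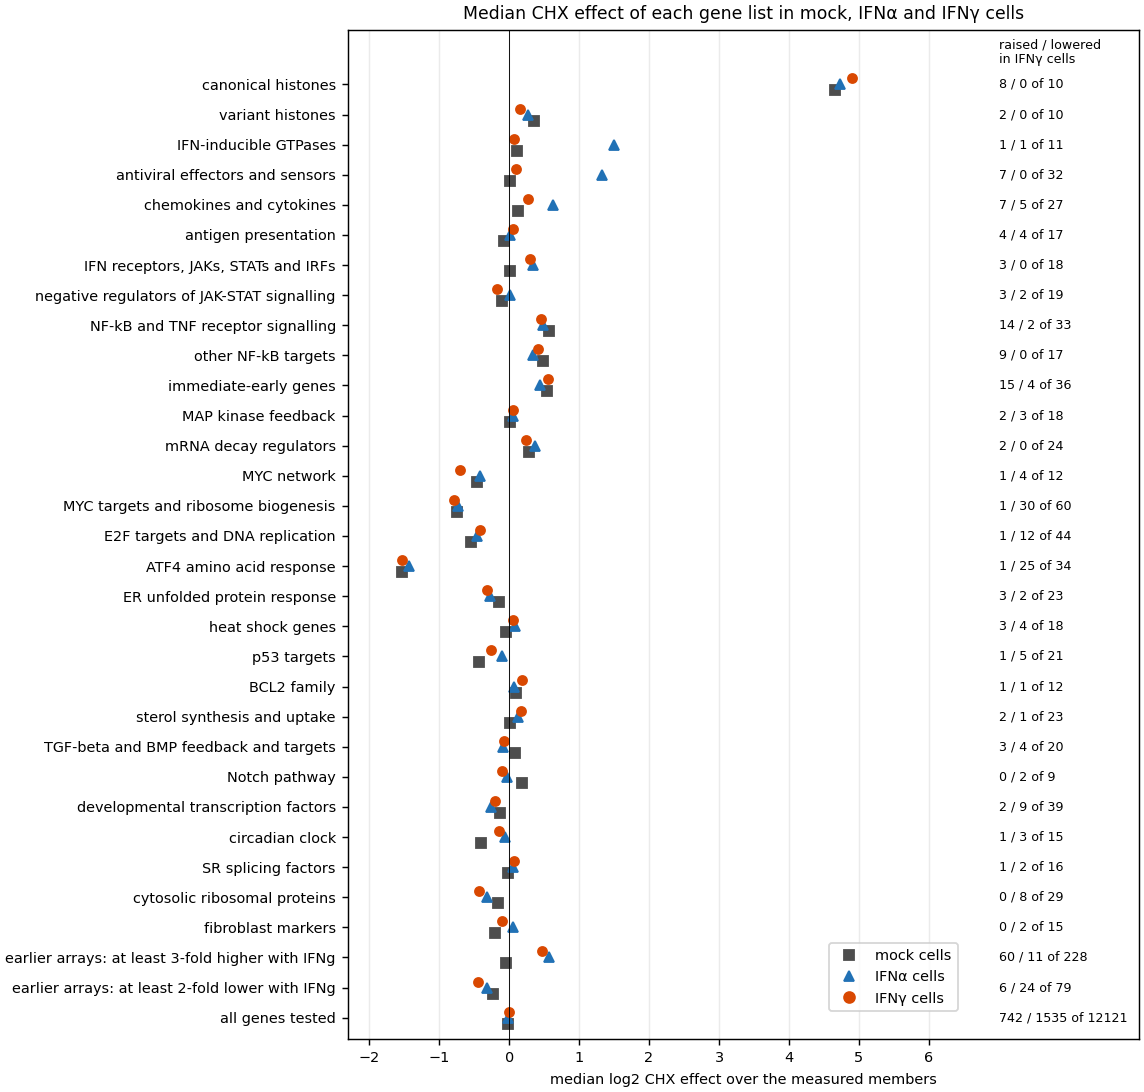
Median log2 CHX effect over the measured genes of each list in mock (squares), IFNα (triangles) and IFNγ cells (circles), with the number of genes (probe sets for the earlier-array lists) raised and lowered in IFNγ cells at an adjusted p under 0.01, with no fold minimum, at the right. Canonical histones lie near 5 and ATF4 genes near -1.5 in all 3 settings, and the GTPase and antiviral lists have higher medians in IFNα cells than in IFNγ cells.

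Some stress and metabolic lists had small counts, to be set beside the 6.12% of all genes that rose and the 12.7% that fell. Several of these counts lay near those shares and are not read as traits of the lists. Of 23 genes of the unfolded protein response 3 rose and 2 fell, with Herpud1 at -2.20 and Eif2ak3 at 1.01. Of 18 heat shock genes 3 rose and 4 fell, among them Hspa4l at 1.23 and Cryab at -1.41. Of 23 sterol genes 2 rose and 1 fell, of 24 mRNA decay regulators 2 rose, of 16 SR splicing factors 1 rose and 2 fell, and of 12 BCL2 family genes 1 moved each way. Of 15 fibroblast markers Pdgfrb fell by 1.10 and Pdgfra by 0.49, and none rose. These small counts were sensitive to single arrays. On leaving out 1 array the rises ranged from 0 to 3 for mRNA decay and for sterol genes, and the falls from 1 to 3 for the unfolded protein response, from 1 to 2 for SR factors, and from 0 to 2 for the BCL2 family and for the fibroblast markers. Eif2ak3 and Cryab each lost their call on leaving out 4 of the 6 arrays in turn.

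Promoter letters were counted in the windows of called genes beside those of the 9821 tested genes with a window and of all 27025 promoters. The κB letters were in 11 of 390 windows (2.82%) of genes that rose and in 3 of 884 (0.339%) of genes that fell, against 1.08% of genes tested and 1.05% of all promoters. They were in 4 of the 28 windows of the NF-κB and TNF receptor list. In the same 28 windows the GAS letters were also in 4, and the ISRE and E2F letters in 5 each. The GAS letters were in 8.46% of windows of genes that rose and 4.86% of those that fell, against 5.84% and 7.18%, and the ISRE letters in 6.41% and 5.2%, against 6.21% and 7.16%. The AARE letters were in 7 of the 28 windows of the ATF4 list, against 2.11% and 3.53%, and the GAS letters in 5 of them. The GC box, GGGCGG, was in 56.7% of windows of genes that rose and 69.7% of those that fell, against 57.8% and 32.9%. The E-box, CACGTG, was in 6.92% and 11.4%, against 8.27% and 6.05%. In the list of MYC targets and ribosome biogenesis it was in 2 of 53 windows (3.77%), below the share of genes tested. The E2F letters, TTTNNCGC, were in 5.38% and 8.6%, against 7.31% and 4.39%, and the CRE letters, TGACGTCA, in 4.87% and 1.58%, against 2.64% and 1.62%. These shares are descriptions of letters, with no test.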

How the data were processed

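Newly transcribed RNA of NIH-3T3 cells was measured on 18 Affymetrix MG 430 2.0 arrays, 3 per treatment. The authors deposited 1 linear intensity per probe set and array, background-corrected, normalised and summarised (gc-RMA per the methods; the submitters' processing notes name Affymetrix Expression Console). From these, log2 values were fitted with limma 3.58.1 in R 4.3.3 over all 18 arrays, with Benjamini-Hochberg adjustment. The 64 control probe sets of 45101 were left out, and 27773 probe sets whose highest value reached 8.5 were kept, standing in for the detection filter of the methods; 22348 of them carried a single symbol (12121 genes). Calls needed an adjusted p under 0.01 and at least a 2-fold change, list members the adjusted p alone, with the brightest probe set per gene. The number of arrays, 3 per group with 12 residual degrees of freedom, limits the precision. p-values measure the spread between these samples of a single cell line.

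Named genes were the 10 largest rises and falls, up to 4 called members of each list, the 10 largest differences each way from mock and from IFNα cells, and genes the study's text discusses; Cd274, Smoc1, Gbp7 and others of the lists fall under these, and further members are given as examples. The comparison, the lists and the tests were chosen with earlier results of these data known. Same-numbered arrays deviated together between the IFNγ groups (correlations of deviations 0.347, 0.247 and 0.581), and different-numbered ones gave -0.462 to 0.082. Elsewhere the numbers were less clear. A different-numbered pair reached 0.395 in mock and 0.375 in IFNα cells, above same-numbered pairs at 0.239 and 0.241. The main fit, which gave the p-values, standard errors and counts, left any pairing out. A fit with the number as a block was run as an alternative. The other alternatives were constants of 1 and 16, median centring, quantile normalisation, other filters, no fold minimum, only the arrays compared, and leaving out each array. The fit was tested on simulated data first. Promoters and symbols came from RefSeq tables and the platform annotation, with windows for 9821 of the 12121 genes.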

Additional observations from a re-analysis of the deposited data

Results flagged for a closer look

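The results below were picked out because the CHX effect in IFNγ cells differed from that in another setting by the limma test of the difference, at an adjusted p under 0.01 and at least 2-fold. Values are differences of log2 CHX effects, IFNγ cells minus the other setting. With 3 arrays per group, single arrays were not screened as outliers.

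Named probe sets with a more positive effect in IFNγ than in mock cells were Cxcl9 (dimmer probe set) at 5.94, Cxcl11 at 5.25, Serpinb1a at 4.54, Icam1 at 4.50, Serpinb1b at 3.90, Arrdc2 at 3.79, Manba at 3.57, Vmn1r42 at 3.20, Sgk2 at 3.16 and Rsph3a at 3.12. Those with a more negative effect were Krtap1-5 at -4.62, Ccl11 at -2.91, Flt1 at -2.37, Irf1 at -2.23, Psme1 at -1.86, Cgref1 at -1.69, Tnk2 at -1.61, Slco2a1 at -1.53, Clcf1 at -1.30 and Znrf2 at -1.17.

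Named probe sets with a more positive effect in IFNγ than in IFNα cells were Cxcl9 (dimmer probe set) at 5.34, Serpinb1a at 4.62, Icam1 at 4.39, Serpinb1b at 3.96, Sgk2 at 3.21, Mfsd13a at 3.19, Arrdc2 at 3.06, Lrrtm2 at 2.71, Hsf5 at 2.47 and Smoc1 at 2.38. Those with a more negative effect were Krtap1-5 at -4.26, Rsad2 (the middle of its 3 probe sets by level) at -3.91, Cxcl9 (brighter probe set) at -3.18, Ccl11 at -3.13, Gbp2 (dimmer probe set) at -3.02, Cd274 at -2.86, Rsad2 (its brightest probe set) at -2.82, Sp100 at -2.80, Oasl1 at -2.79 and Gbp2 (brighter probe set) at -2.73.

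The dimmest Rsad2 probe set also differed from IFNα cells, by -1.56, but it passed the filter only through the IFNα arrays with CHX. Sgk2 passed only through the IFNγ arrays with CHX, and Krtap1-5 only through the mock and IFNα arrays with CHX. The differences of these probe sets are therefore not independent of the filter and lend no support. The Cxcl9 probe sets disagreed in sign against IFNα cells, and the difference of Irf1 from mock cells lost its call under several alternatives.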

How the results depend on the processing

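Counts below give probe sets raised and lowered by CHX at the stated calls. In IFNγ cells (792 and 1540) they were 1228 and 969 with median centring, 312 and 565 with only the arrays compared, and 1360 and 2539 with no fold minimum. In mock cells (698 and 1131) they were 323 and 564 with only the arrays compared and 1088 and 1950 with no fold minimum, and in IFNα cells (991 and 994) they were 579 and 580, and 1540 and 1753, with 629 raised among the brighter probe sets (mean above the median of those kept). With the replicate number as a block the counts in IFNγ cells were 984 and 1846, and those of larger and smaller effects than in mock cells were 102 and 23; the block moved none of the other counts of probe sets called over the whole array by over 1.5 times. It did move list counts, with rises of mRNA decay regulators from 2 to 7, of sterol genes from 2 to 5 and of immediate-early genes from 15 to 23, and falls of developmental factors from 9 to 16 and of TGF-β genes from 4 to 7. The 55 larger effects than in mock cells were 24 with only the arrays compared, 11 among the brighter probe sets and 32 to 60 when leaving out 1 array; the 11 smaller effects were 4 with median centring, 7 with no filter, 3 with only the arrays compared, 3 among the brighter ones and 4 to 12 when leaving out 1 array. Against IFNα cells the 24 larger effects were 11 with only the arrays compared, 0 among the brighter ones and 14 to 35 when leaving out 1 array, and the 39 smaller effects were 25 with median centring, 21 with only the arrays compared and 7 among the brighter ones. Fits of only the arrays compared have fewer residual degrees of freedom, and the brighter set holds fewer probe sets; other causes were not tested. None of the 2096 recomputed values of named genes changed direction, and 191 lost their call. None of the 769 recomputed differences changed direction, and 128 lost their call. Of 1076 recomputed list counts 869 stayed within 1.5 times. On leaving out 1 array the falls stayed at 22 to 24 for ATF4 genes and 26 to 28 for MYC targets. The rises stayed at 12 to 13 for NF-κB signalling and at 8 for canonical histones. With only the arrays compared the falls were 13 for ATF4 genes and 10 for MYC targets. The rises were then 9 for NF-κB signalling and 7 for canonical histones. Median centring took the falls of MYC targets to 19. Levels near background limit the size of a fold, and no detection calls were used here.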
